A study of Mus musculus with 12 samples.

Results

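Hematopoietic stem cells (HSCs) that carry mutant p53 were compared between irradiated and unirradiated mosaic mice. The comparison set the 2 arrays of irradiated mp53 cells from mosaic mice against the 2 arrays of mp53 cells from mosaic mice without irradiation, chosen by sample title, and so used 4 of the 12 arrays of the series. A mosaic mouse held R26-mp53 cells, which expressed mutant p53 together with GFP, beside wild-type (WT) cells without GFP. The irradiated mice had received 2.5 Gy and were examined 3 weeks later, and the unirradiated mice received 0 Gy. Each array held amplified RNA from 200 sorted bone marrow cells in the lineage-negative, c-Kit-positive, Sca-1-positive, CD48-negative, CD150-positive gate. The labels call irradiated mp53 cells of mosaic mice winners of a competition and give their unirradiated counterparts the status no competition. Irradiation and competition with irradiated WT cells therefore cannot be told apart in this comparison. The promoter and recombination driver of the R26-mp53 allele, the p53 mutation, and the sex, age and number of mice behind an array were not stated in the labels read here, so p-values measure only the spread between these samples.

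HSCs renew themselves and feed all blood lineages, and most of them divide rarely. Their quiescence is held by cyclin-dependent kinase inhibitors, by imprinted growth regulators and by signals from the marrow niche. The transcription factor p53 stops or kills cells after DNA damage and also takes part in keeping HSCs quiescent, and cells with mutant p53 are known to outgrow normal cells in irradiated marrow.

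Intensities are given as background-corrected, quantile-normalised log2 values, on which a probe at background lies between about 4 and 5. Probes detected at a detection p under 0.05 on both arrays of at least 1 of the 6 groups were kept, which left 13512 probes and, at 1 probe a gene, 8374 genes. The 4 arrays were unequal. The unirradiated replicate 1 was the dimmest of all 12, with a 95th percentile of raw intensity of 82.3 and 8968 probes detected (19.2%), whereas its replicate 2 had 257 and 11891 (25.5%). The irradiated arrays had 258 and 1079, with 13369 and 13489 probes detected (28.7% and 28.9%), and the latter was the brightest array. The unirradiated pair correlated at 0.756 and the irradiated pair at 0.918. Results are therefore also given within replicate 2 alone, which leaves the dimmest array out. Replicate 2 still holds a brightness difference, since its irradiated array was the brighter one too (1079 against 257). Sex-linked transcripts differed too: the Y-linked Eif2s3y was at 9.42 and 4.22 in unirradiated and at 9.21 and 8.29 in irradiated replicates 1 and 2, and Xist was at 6.43 and 6.53 and at 6.63 and 5.36. Of the 4 arrays, only unirradiated replicate 2 had Eif2s3y near background. It is the only unirradiated array in comparisons within replicate 2 or without the dimmest array. There, irradiation and this sex-linked difference cannot be told apart. The part of sex in the differences was not tested.

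The labelled cell type was checked against marker genes. Of 38 HSC genes with a named probe, 25 and 26 were detected on the unirradiated arrays and 24 and 22 on the irradiated ones. Slamf1, which encodes the gating antigen CD150, was not detected on any of the 4 arrays and Procr on none of the 12. Kit, the gating antigen c-Kit, was detected on all 4. Probes for Trp53 and for Ly6a, which encodes Sca-1, were not analysed here, so neither the altered gene nor Sca-1 could be checked. Kept transcripts of the CD48-negative gate included Cd48 itself, described below.

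Across all genes, differences between irradiated and unirradiated mp53 cells ran the same way in the separate replicates. Within-replicate differences correlated across genes at r = 0.581 and had the same sign for 6132 of 8374 genes (73.2%), where genes are not independent replicates. In WT cells of the same kinds of mice the corresponding values were r = 0.066 and 58.0%. A limma model of the 6 group means called 0 of 13512 probes at an adjusted p under 0.05 (0%), with a smallest adjusted p of 0.336. At an unadjusted p under 0.05 there were 1800 probes (13.3%), against 675.6 that the threshold alone would give. By gene, 529 (6.32%) lay higher and 597 (7.13%) lay lower in irradiated cells at that p. Genes higher within both replicates numbered 3065 (36.6%) and genes lower within both 3067 (36.6%). Every list count below is to be read beside these shares of all genes. The number of calls rested on the unirradiated arrays: without replicate 2, where the dimmest array alone stood for that group and was assumed to vary like the others, 981 probes passed the adjusted threshold, and without replicate 1, 0 did, with 244 probes higher and 390 lower at the unadjusted p. All differences below are described with their values, since none passed the adjusted test with all arrays in the fit (limma adjusted p from 0.336 to 0.928 for the genes named). The differences are relative to all genes: their median was 0.02 under quantile normalisation, but 1.25 when arrays were scaled on their median instead, and among the genes named here lower values as large as -1.99 (Phc1) then changed sign.

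**Figure D1:**
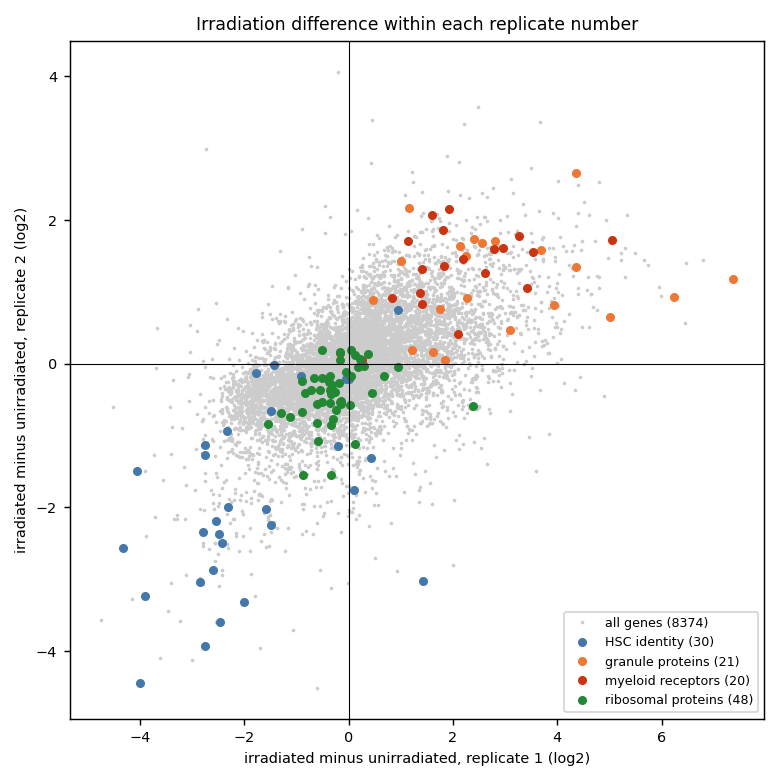
Irradiated minus unirradiated log2 difference in mp53 cells of mosaic mice, within replicate 1 (horizontal) and within replicate 2 (vertical). Each grey point is 1 of 8374 genes and coloured points are members of 4 gene lists. HSC identity genes gather at lower left, with 25 of 30 lower in both replicates, and all 21 granule protein genes lie at upper right.

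Genes that mark or maintain HSCs lay lower in irradiated mp53 cells. Of 30 kept HSC identity genes, 25 were lower within both replicates and 1 was higher, and 20 were lower at an unadjusted p under 0.05 (7.13% of all genes) against 1 higher (6.32%). In bulk RNA, fewer cells of a type and less RNA per cell cannot be told apart. The median difference was -1.98 log2, against 0.02 over all 8374 genes, and it was -2.33 within replicate 1 and -2.01 within replicate 2. Within replicate 2, 29 of 30 were lower and 1 was higher, against 52.9% and 47.1% of all genes. Without the dimmest array the fitted median was -1.87, and with array brightness as a covariate it was -1.39. Under median scaling it was -0.53, which was -1.78 relative to the shift of all genes. The mean level of the list was 5.84 and 5.50 on the irradiated arrays, below all 10 other arrays of the series, which ran from 6.31 to 7.92.

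Ndn, which encodes necdin, a growth suppressor of the imprinted Prader-Willi region that restrains HSC division, had the lowest unadjusted p. It was at 9.50 and 10.13 in unirradiated replicates 1 and 2 and at 5.50 and 5.69 in irradiated ones. The groups did not overlap, which held for 21.6% of all genes in this direction and 22% in the other, and lay 18.6-fold apart (difference -4.22, SE 0.56, limma unadjusted p = 4.54e-05). In irradiated mp53 cells of fully recombined mice, labelled as without competition, Ndn stood at 9.99 and 8.70. The RefSeq promoter of Ndn, on GRCm38.p6 at chr7:62348027-62348326 on the forward strand, is shown because this gene leads the comparison. The letters of the 3 motifs searched in other promoters below did not occur in it on either strand.
Ndn promoter: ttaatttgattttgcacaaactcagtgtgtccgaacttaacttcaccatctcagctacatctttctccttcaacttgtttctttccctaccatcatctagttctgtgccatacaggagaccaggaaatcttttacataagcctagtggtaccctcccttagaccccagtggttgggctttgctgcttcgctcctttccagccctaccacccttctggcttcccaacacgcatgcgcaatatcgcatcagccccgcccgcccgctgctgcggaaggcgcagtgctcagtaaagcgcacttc

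Cdkn1c encodes p57, the cyclin-dependent kinase inhibitor most closely tied to HSC quiescence. Its level was 10.35 and 10.04 in unirradiated and 6.45 and 6.81 in irradiated cells, again without overlap (difference -3.57, SE 0.72, limma unadjusted p = 0.000966). Fgd5, an HSC marker that activates small GTPases, went from 7.62 and 7.76 to 4.78 and 4.71 (difference -2.94, SE 0.60). The values of Fgd5 formed tight pairs, and the irradiated pair lay near background. Sult1a1, a sulfotransferase with high expression in HSCs, was at 9.26 and 7.87 against 4.94 and 5.31 (difference -3.44, SE 0.56). Meis1, a homeodomain factor that HSCs need, was at 11.24 and 10.89 against 8.78 and 7.30 (difference -3.02, SE 0.75). It remained well above background after irradiation. Each of these genes was lower in both replicates, and the smallest within-replicate difference among the 4, that of Meis1 in replicate 1, was -2.46.

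**Figure D2:**
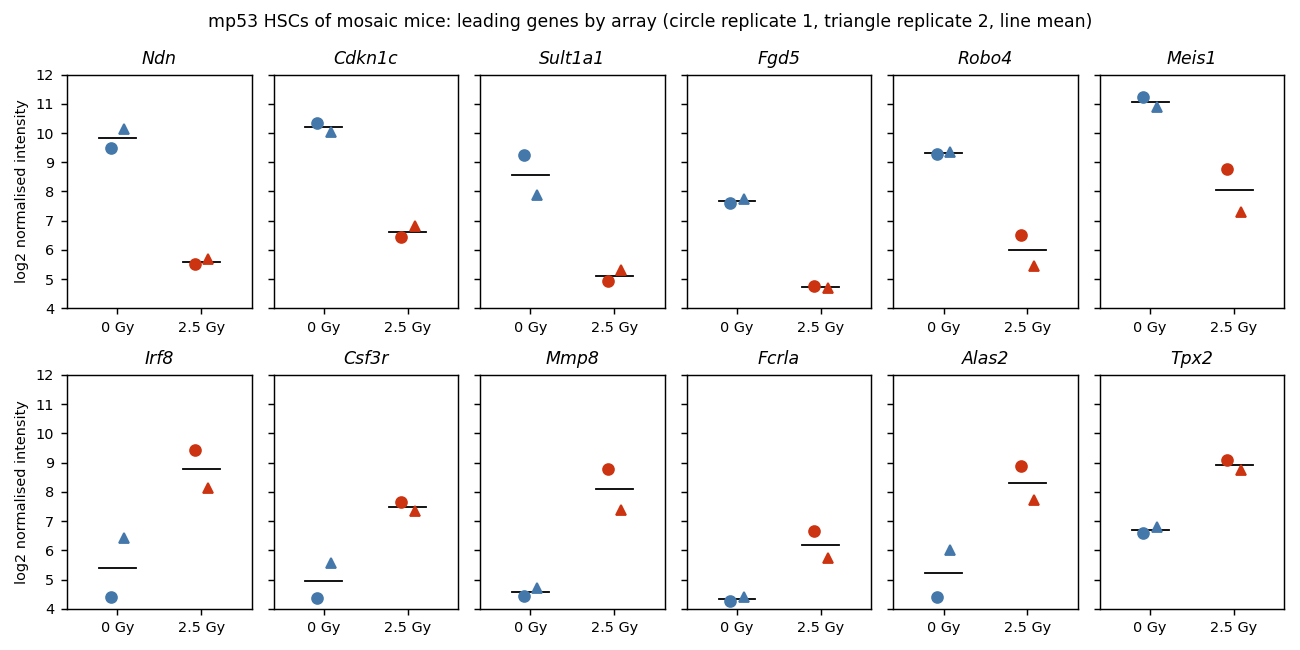
Log2 normalised intensity of 12 genes in mp53 HSCs of mosaic mice at 0 Gy (blue) and 2.5 Gy (red), with replicate 1 as circles, replicate 2 as triangles and the mean as a line. The genes were named for a low p or a large difference, and the groups do not overlap in any panel. Of all genes, 21.6% were lower and 22% higher without overlap. Fcrla was near background on all arrays outside the irradiated pair, at most at 4.81. Ndn, Cdkn1c, Sult1a1, Fgd5, Robo4 and Meis1 are lower after irradiation, and Irf8, Csf3r, Mmp8, Fcrla, Alas2 and Tpx2 are higher. The spread of the unirradiated pair is widest for Irf8, at 4.39 and 6.41.

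Further HSC genes showed the same pattern. Vwf, the von Willebrand factor gene, active in a platelet-biased subset of HSCs, was at 9.53 and 8.70 in unirradiated and 7.10 and 6.20 in irradiated cells. Gata2, a zinc finger factor of stem and mast cells, was at 10.43 and 9.45 against 8.94 and 7.21, although under median scaling its difference was 0.16. Both genes were lower in both replicates. Egr1, an immediate early gene that holds HSCs quiescent in the niche, was at 11.31 and 8.08 against 7.25 and 6.59, so the size of its difference rested more on replicate 1 (-4.06) than on replicate 2 (-1.49). Kit, the stem cell factor receptor, was at 8.47 and 7.41 against 5.72 and 6.13 (difference -2.01, SE 0.68). Cd34, which adult mouse HSCs carry little of, was at 5.98 and 7.42 against 6.41 and 6.11, and its groups overlapped.

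Imprinted growth regulators and quiescence genes lay lower as a group. Of 8 kept members, 6 were lower within both replicates and 1 higher, 4 were lower at an unadjusted p under 0.05, and the median difference was -1.79 (-2.63 and -1.61 within replicates 1 and 2, and -0.54 under median scaling). Of all genes, 7.13% were lower at that p and 36.6% were lower within both replicates. Ndn and Cdkn1c belong to the imprinted and quiescence list as well. Grb10, an imprinted adaptor that dampens insulin and growth factor receptors, was at 9.23 and 8.48 in unirradiated and 6.75 and 6.55 in irradiated cells. Igf2, the imprinted insulin-like growth factor gene, was at 8.75 and 6.05 against 5.02 and 4.78. Neither gene's groups overlapped, as for 21.6% of all genes in the lower direction, and both genes were named for their low p. Among 7 cyclin-dependent kinase inhibitors and senescence genes, 2 were lower and 2 higher within both replicates, and the median of -0.33 (0.78 under median scaling) was -0.89 in replicate 1 and 0.11 in replicate 2.

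Genes of the niche, adhesion and homing leaned lower, with 13 of 20 lower and 6 higher within both replicates, and 8 lower against 2 higher at an unadjusted p under 0.05, where all genes gave 7.13% and 6.32% (median -0.79, and 0.20 under median scaling). Robo4, a guidance receptor that anchors HSCs in the marrow, was at 9.27 and 9.36 in unirradiated and 6.53 and 5.44 in irradiated cells (difference -3.33, SE 0.72). Esam, an endothelial and HSC adhesion molecule, was at 7.91 and 7.66 against 5.91 and 4.35. Ephb4, an ephrin receptor, was at 8.11 and 6.83 against 4.98 and 4.67. In the other direction, Nrp1, a co-receptor of semaphorins and vascular growth factor, was at 4.56 and 4.96 against 7.59 and 6.51. None of these 4 genes, named for their low p, had overlapping groups, as 21.6% of all genes had not in the lower and 22% in the higher direction.

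Genes outside the lists were among the largest lower values as well. Gucy1a1, a subunit of soluble guanylate cyclase, was at 10.43 and 8.67 in unirradiated and 6.28 and 5.40 in irradiated cells. Prkg1, the cyclic GMP-dependent kinase, was at 9.31 and 9.80 against 6.78 and 6.21 (difference -3.06, SE 0.61). Npr2, a receptor guanylate cyclase, was at 9.51 and 6.93 against 5.63 and 4.54. All 3 were lower in both replicates. Tceal5, of a family resembling transcription elongation factors, was detected on both unirradiated arrays (9.16 and 8.16) and on neither irradiated array, and so lay at least 16.5-fold lower. Col16a1, a fibril-associated collagen, lay at least 14.0-fold lower by the same measure, and Tle2, a Groucho-type corepressor, at least 7.19-fold lower. Each such bound takes, on every array without detection, either the probe's value or the dimmest detected signal, whichever is greater.

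Nkx2-3, a homeodomain factor, was at 8.38 and 8.44 in unirradiated and 5.16 and 4.86 in irradiated cells. Wfdc2, a secreted protease-inhibitor-like protein, was at 9.22 and 9.71 against 6.22 and 5.59. Hspb8, a small heat shock protein, was at 9.07 and 8.48 against 5.60 and 5.04. For these 3 genes the lowest unirradiated value exceeded the highest irradiated one by more than 2 log2 units. Maged1, a MAGE family protein as necdin is, was at 8.30 and 8.21 against 5.73 and 5.46 (difference -2.66, SE 0.49). Gprasp1, which sorts G protein-coupled receptors, had the second lowest p of the genes that were lower, averaging 8.83 ± 0.23 in unirradiated and 6.68 ± 0.23 in irradiated cells (SD, n = 2; difference -2.15, SE 0.29, limma unadjusted p = 4.97e-05). Foxa3, a forkhead factor, was at 8.31 and 7.73 against 4.90 and 4.68 (difference -3.23, SE 0.51).

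Markers of maturing blood cells lay higher in irradiated mp53 cells. The filter on dim probes can favour this direction, because a gene could be kept through the irradiated pair alone, and the number of such genes is given with the cell type lists that lay higher and with the G2 and mitosis list. Elsewhere it was 4 of 21 NF-kB genes, 4 of 20 interferon genes, 2 each in the gate, stroma, megakaryocyte, immediate early, oxidative stress and TGF-beta lists, 1 each in the HSC identity, mast, MHC, p53 target, apoptosis, niche and proteasome lists, and 0 in the others. All 21 kept granule protein genes were higher within both replicates, with a median of 1.88 (2.41 and 1.18), 1 at an unadjusted p under 0.05 and 1 kept through the irradiated pair alone. All genes gave 6.32% higher at that p and 36.6% higher within both replicates. How many of all genes were kept through the irradiated pair alone was not counted. Detected members of the granule list, of 22 with a probe, numbered 13 and 19 on the unirradiated and 21 and 21 on the irradiated arrays. The mean level was 7.27 and 9.10 in unirradiated and 10.20 and 10.27 in irradiated cells. It also spread within other groups: from 5.43 to 10.04 between the arrays of non-competing irradiated mp53 cells and from 7.01 to 9.55 between those of unirradiated WT cells. With array brightness as a covariate the fitted median was -0.10, and without the dimmest array it was 0.80.

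Mmp8, the neutrophil collagenase, was at 4.44 and 4.71 in unirradiated cells, detected on neither array, and at 8.80 and 7.37 in irradiated cells, at least 9.04-fold higher. Prg2, the eosinophil major basic protein gene, had a wide unirradiated pair, at 5.24 and 9.93 against 12.60 and 11.11 (difference 4.27, SE 2.51). Fcnb, a ficolin of neutrophils and monocytes, was at 4.83 and 7.90 against 8.52 and 9.49. Lyz1, a lysozyme gene, was at 4.76 and 4.44 against 5.92 and 6.60. The irradiated arrays were higher in each case.

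Receptors and regulators of myeloid cells moved less with brightness. Of 20 kept members, 19 were higher within both replicates and 0 lower, and 8 were higher at an unadjusted p under 0.05 (median 1.83, 1.71 with undetected values at their bound, and 1.87 and 1.41 within replicates 1 and 2). Of these, 1 was kept through the irradiated pair alone. The fitted median was 1.45 without the dimmest array and 1.28 with brightness as a covariate. The mean level was 6.19 and 6.50 in unirradiated and 8.25 and 7.79 in irradiated cells. On the 10 arrays outside the irradiated pair it ran from 5.09 to 7.50. It also spread within other groups, with 7.27 and 5.61 in unirradiated WT cells of mosaic mice. Non-competing irradiated WT cells had 7.12 and 7.45. Among all genes, 6.32% were higher at an unadjusted p under 0.05 and 36.6% were higher within both replicates. Irf8, the interferon regulatory factor that directs monocyte and dendritic cell fate, was at 4.39 and 6.41 in unirradiated and 9.44 and 8.14 in irradiated cells (difference 3.39, SE 1.03). Ly86, which partners a Toll-like receptor homologue, averaged 4.64 ± 0.51 in unirradiated and 6.93 ± 0.44 in irradiated cells (SD, n = 2). Cd33, a sialic acid-binding receptor, was undetected in unirradiated cells and at 5.80 and 5.78 in irradiated cells, at least 1.84-fold higher.

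Csf3r, through which G-CSF drives neutrophil production, was at 4.38 and 5.55 in unirradiated and 7.64 and 7.33 in irradiated cells (difference 2.52, SE 0.73). Its promoter is shown as the list member with the lowest p among the named ones whose RefSeq window holds the core letters bound by PU.1, the ETS factor of myeloid cells. It lies on GRCm38.p6 at chr4:126024409-126024708, forward strand, with GAGGAA in capitals.
Csf3r promoter: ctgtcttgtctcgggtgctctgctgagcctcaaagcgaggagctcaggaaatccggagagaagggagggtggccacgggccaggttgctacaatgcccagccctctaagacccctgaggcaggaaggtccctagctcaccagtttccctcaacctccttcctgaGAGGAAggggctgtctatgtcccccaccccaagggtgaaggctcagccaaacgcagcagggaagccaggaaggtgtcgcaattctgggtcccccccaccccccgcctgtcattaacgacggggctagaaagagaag
GAGGAA or its reverse complement occurred in 7 of the 17 list members with a RefSeq promoter (41.2%) and in 2116 of 6875 genes with a promoter among all tested (30.8%).

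Genes outside the lists were also among the largest higher values. Lilr4b, an inhibitory immunoglobulin-like receptor, was at 4.41 and 5.15 in unirradiated and 8.08 and 8.51 in irradiated cells, a difference of 3.67 in replicate 1 and 3.36 in replicate 2. Sirpb1b, a signal regulatory protein, was at 5.13 and 6.26 against 9.14 and 8.80. Clec10a, a lectin of macrophages and dendritic cells, was at 4.66 and 5.59 against 9.27 and 7.66. Mxd1, a Max partner that opposes Myc during differentiation, was at 4.79 and 7.77 against 10.13 and 9.84 (difference 3.71, SE 1.14). Sorl1, a sorting receptor, was at 4.30 and 7.01 against 9.53 and 8.56. Klf4, a member of the myeloid and immediate early lists and a zinc finger factor that promotes monocytes, was at 4.37 and 5.86 against 7.78 and 6.92. In all 6 genes replicate 1 gave the larger difference. Non-competing irradiated WT cells had Mxd1 at 8.67 and 9.37, Sorl1 at 8.07 and 8.71 and Clec10a at 7.61 and 7.22. They had Sirpb1b at 6.58 and 8.61, Lilr4b at 5.66 and 7.67 and Klf4 at 6.93 and 6.45. Signal above background was thus not limited to irradiated mp53 cells.

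Progenitor markers lay higher, with 10 of 14 kept members higher and 3 lower within both replicates, 6 higher at an unadjusted p under 0.05, 1 kept through the irradiated pair alone, and a median of 2.02 (1.57 with undetected values at their bound, 2.22 and 1.35 within replicates, 1.04 without the dimmest array). The shares of all genes were 6.32% higher at that p and 36.6% higher within both replicates. Cd48, the antigen that the gate excludes, was at 4.64 and 4.81 in unirradiated cells, detected on 1 of 2 arrays. Irradiated cells had it at 8.36 and 6.27, detected on both arrays (difference 2.59, SE 0.79). In non-competing irradiated mp53 cells Cd48 was at 4.67 and 5.96. WT cells of mosaic mice had it at 6.92 and 5.14 unirradiated and at 4.95 and 5.04 irradiated. In non-competing irradiated WT cells it was at 6.83 and 6.05, so signal above background was not limited to irradiated mp53 cells. Il7r, the interleukin 7 receptor of lymphoid progenitors, was undetected in unirradiated cells and at 6.83 and 5.92 in irradiated ones, at least 2.76-fold higher. Over the 7 kept genes for antigens used in gating, 4 were higher and 1 was lower within both replicates (median 0.66, or -0.17 with brightness as a covariate).

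B-lineage genes were detected mainly on the irradiated arrays. Of 10 kept members, 8 were higher within both replicates and 8 at an unadjusted p under 0.05, but 7 of the 10 had been kept through the irradiated pair alone, so that a difference was built in. The median was 1.46, or 1.12 with undetected values at their bound. Over all genes, 6.32% were higher at an unadjusted p under 0.05. Of 18 members with a probe, 3 and 5 were detected on the unirradiated and 12 and 9 on the irradiated arrays, while the defining gene Pax5 was detected on none of the 4. Blnk, the B-cell linker protein, was at 4.19 and 5.81 in unirradiated and 9.13 and 7.81 in irradiated cells. Fcrla, an Fc receptor-like protein of B cells, lay at least 2.45-fold higher, at 6.66 and 5.73 against background. Spib, an ETS factor, lay at least 1.92-fold higher and Cd79a, a signalling chain of the B-cell antigen receptor, at least 1.15-fold. Fcmr, the Fc receptor for IgM, which was not on the list, was at 8.92 and 7.11 and lay at least 8.63-fold higher.

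T and natural killer cell genes were higher within both replicates for 8 of 11 and lower for 2, with 3 kept through the irradiated pair alone and a median of 0.87 (1.12 and 0.68 within replicates, 0.52 without the dimmest array and 0.23 with brightness as a covariate). At an unadjusted p under 0.05, 4 were higher and 0 lower, against 6.32% and 7.13% of all genes. Within both replicates, 36.6% of all genes were higher and 36.6% lower. The defining genes Cd3g, Cd4, Zap70 and Prf1 were among 13 of 24 that no array of the 4 detected. Notch1, the receptor that starts T-cell fate, was at 5.37 and 7.43 in unirradiated and 9.02 and 8.65 in irradiated cells. Cd3d, a T-cell receptor subunit, was at 4.72 and 5.45 against 7.20 and 9.02. Klrd1, a natural killer receptor, was at 4.62 and 4.81 against 6.82 and 6.54. The groups of these genes, named for their low p, did not overlap, as for 22% of all genes in the higher direction.

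Erythroid genes were higher within both replicates for 17 of 23 and lower for 1, with 4 higher and 1 lower at an unadjusted p under 0.05 (median 1.36, and 2.03 and 1.06 within replicates; 0.33 with brightness as a covariate). Of the 23, 1 was kept through the irradiated pair alone. For all genes the shares at that p were 6.32% higher and 7.13% lower, and 36.6% were higher within both replicates. Fech, the last enzyme of haem synthesis, lay at least 3.22-fold higher, at 6.77 and 6.42 against background. Uros, another enzyme of that pathway, was at 5.31 and 5.32 against 6.20 and 6.47, and Rhd, a red cell antigen, at 5.54 and 7.39 against 11.02 and 8.93. Ank1, the red cell ankyrin, went the other way, at 6.21 and 5.67 against 4.78 and 4.92, but its kept probes differed in sign. Alas2, which catalyses the first step of haem synthesis in red cells, was at 4.42 and 6.01 against 8.90 and 7.73 (difference 3.10, SE 0.86). Its promoter holds the letters bound by GATA factors, TTATCT on the strand shown, in capitals. It lies on GRCm38.p6 at chrX:150547167-150547466, forward strand.
Alas2 promoter: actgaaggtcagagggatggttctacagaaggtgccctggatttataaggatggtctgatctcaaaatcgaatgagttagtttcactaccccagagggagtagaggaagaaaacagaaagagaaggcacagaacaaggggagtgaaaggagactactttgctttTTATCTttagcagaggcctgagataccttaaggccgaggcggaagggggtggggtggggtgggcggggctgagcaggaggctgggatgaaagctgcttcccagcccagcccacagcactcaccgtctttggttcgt
AGATAA or its reverse complement occurred in 5 of the 17 erythroid genes with a promoter (29.4%) and in 597 of 6875 genes overall (8.68%).

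Lists of other cells gave mixed values. Within both replicates, 36.6% of all genes were higher and 36.6% lower. At an unadjusted p under 0.05, 6.32% of all genes were higher and 7.13% lower. Megakaryocyte genes were lower within both replicates for 7 of 12 and higher for 3 (median -0.33, 1.05 under median scaling, 0.22 without the dimmest array, and -1.15 and 0.16 without irradiated replicates 1 and 2). Mmrn1, a platelet multimerin, was at 5.63 and 6.69 in unirradiated and 4.78 and 4.73 in irradiated cells, whereas Itgb3, the platelet integrin beta chain, lay at least 1.25-fold higher. Of 12 mast cell, basophil and eosinophil genes, 5 were higher and 5 lower within both replicates, 0 were higher and 2 lower at an unadjusted p under 0.05 (Kit and Gata2, given above), and the median of 1.21 was 2.35 in replicate 1 and -0.32 in replicate 2, so the replicates disagreed. Among the members with higher values, Prg3 and Epx, eosinophil granule genes, were at 4.52 and 5.08 and at 4.31 and 4.37 in unirradiated cells and at 8.13 and 6.16 and at 7.72 and 5.92 in irradiated cells. MHC class II and dendritic genes were higher within both replicates for 6 of 13 and lower for 4, with a median of 0.62 that was 1.32 in replicate 1 and -0.02 in replicate 2. Among them Cd83, a maturation antigen of dendritic cells, lay at least 1.66-fold higher and H2-Ab1, an MHC class II chain, was at 4.84 and 6.34 against 7.41 and 7.03.

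Stromal and endothelial markers had a median of 0.08 over 11 kept genes, of which 6 were higher and 1 was lower within both replicates. Col1a1, Col3a1, Lepr and Kitl, which define stroma, were detected on none of the 4 arrays. Single members were nevertheless high in irradiated cells. Cxcl12, the chemokine by which the niche retains HSCs, was undetected at 0 Gy and at 8.47 and 5.62 after irradiation, at least 4.40-fold higher. Acta2, smooth muscle actin, was at 4.21 and 4.80 against 7.60 and 6.86 (difference 2.73, SE 0.71), Vcam1, an adhesion molecule of stroma and macrophages, at 5.67 and 9.01 against 10.98 and 10.23, and Sparc, a matrix protein, lay at least 1.34-fold higher. The 4 kept probes of Vcam1 differed in sign. The part of admixed cells of other types in any of these differences was not tested.

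**Figure D3:**
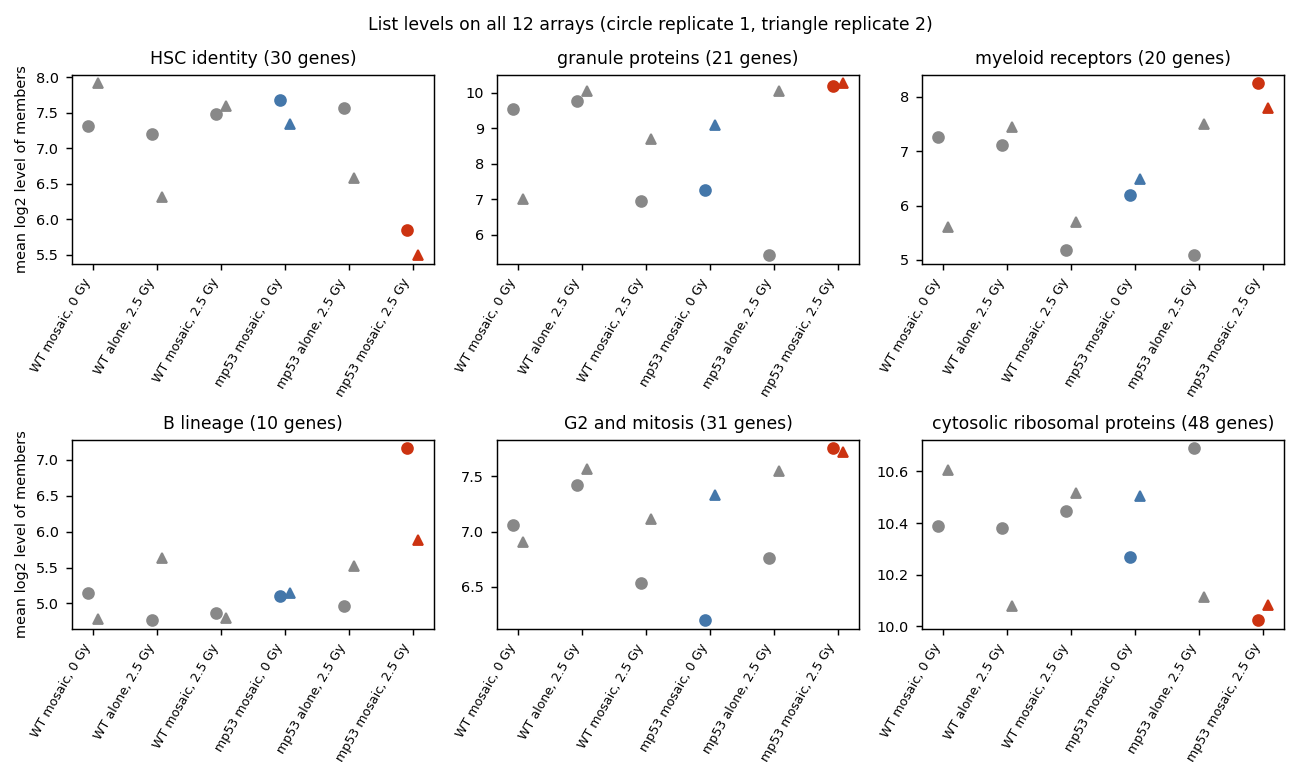
Mean log2 level of 6 gene lists on all 12 arrays, by group, with replicate 1 as circles and replicate 2 as triangles. mp53 cells of mosaic mice are blue at 0 Gy and red at 2.5 Gy, and the other groups are grey. The red points are the lowest of all for HSC identity (5.84 and 5.50) and the highest for granule proteins (10.20 and 10.27), where grey pairs also lie far apart. Of the 10 B-lineage genes, 7 had been kept through the irradiated pair alone.

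Genes of G2 phase and mitosis lay higher, with 23 of 31 higher and 2 lower within both replicates, 5 higher and 1 lower at an unadjusted p under 0.05 (6.32% and 7.13% of all genes), and 3 kept through the irradiated pair alone. Of all genes, 36.6% were higher and 36.6% lower within both replicates. The list median was 0.96, with 1.54 in replicate 1 and 0.42 in replicate 2. It was 0.26 in the fit without the dimmest array and 0.07 with brightness as a covariate. Tpx2, a spindle assembly factor, was at 6.58 and 6.79 in unirradiated and 9.10 and 8.73 in irradiated cells (difference 2.23, SE 0.66). Tacc3, which stabilises spindle microtubules, was at 5.26 and 6.02 against 7.35 and 7.21 (difference 1.64, SE 0.39). Aurkb, a mitotic kinase, was at 4.71 and 5.15 against 5.95 and 5.96. Tpx2 and Tacc3 were detected on all 4 arrays. E2f2, an activator of cell cycle genes that was not on this list, was at 5.46 and 6.35 against 10.25 and 8.89 (difference 3.66, SE 1.12).

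Promoters of genes expressed in G2 phase and mitosis often carry the CHR, a cell cycle element read by the DREAM complex and the factors that replace it. Its letters TTTGAA or the reverse complement occurred in 18 of the 26 list members with a RefSeq promoter (69.2%) and in 1011 of 6875 genes overall (14.7%). Ndc80, a kinetochore gene, lay at least 1.10-fold higher, at 5.07 and 5.01 against background. It is shown as the named member with the lowest p that holds the letters, on GRCm38.p6 at chr17:71526808-71527107, reverse strand, with TTCAAA, the reverse complement, in capitals near the end.
Ndc80 promoter: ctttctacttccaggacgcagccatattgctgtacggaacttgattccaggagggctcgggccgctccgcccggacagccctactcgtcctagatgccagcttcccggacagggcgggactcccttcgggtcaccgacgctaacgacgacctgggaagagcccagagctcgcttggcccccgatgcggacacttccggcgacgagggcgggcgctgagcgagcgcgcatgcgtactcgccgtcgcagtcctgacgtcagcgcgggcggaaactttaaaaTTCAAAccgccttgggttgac
The match is a description of the sequence and was not tied to any binding measurement.

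S-phase and replication genes differed less, with 16 of 29 higher and 6 lower within both replicates and 2 at an unadjusted p under 0.05, both higher (median 0.30, and 0.29 and 0.40). Cdc6, a replication licensing factor, was at 7.05 and 7.25 in unirradiated and 8.40 and 8.34 in irradiated cells (difference 1.22, SE 0.31), with tight pairs on either side. Rrm2, a subunit of ribonucleotide reductase, was at 4.86 and 7.55 against 8.67 and 8.76. The share of all genes higher at an unadjusted p under 0.05 was 6.32%.

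Ribosomal protein genes lay slightly lower, with 32 of 48 lower and 4 higher within both replicates and a median of -0.35 (-0.32 and -0.38); under median scaling the median was 1.21, which was -0.04 relative to the shift of all genes. Of the 48, 3 were lower at an unadjusted p under 0.05, a share near that of all genes. Rpl22 was at 7.21 and 7.41 in unirradiated and 6.34 and 5.86 in irradiated cells, Rplp0 at 8.96 and 8.48 against 7.66 and 7.80, and Rpl32 at 12.49 and 12.37 against 11.90 and 11.30. Each encodes a protein of the large subunit or its stalk, and each would lie higher under median scaling. Ribosome biogenesis and Myc target genes were lower within both replicates for 11 of 24 and higher for 2 (median -0.39, or 1.20 under median scaling and 0.03 without irradiated replicate 1). Gar1, of the pseudouridylation complex, was at 10.21 and 10.52 against 8.93 and 9.53, and its difference was 0.90 under median scaling.

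Genes of oxidative phosphorylation leaned higher, with 39 of 60 higher and 4 lower within both replicates, but 0 had an unadjusted p under 0.05. The median of 0.45 was 0.53 in replicate 1 and 0.25 in replicate 2, and in the fit without the dimmest array it was -0.01. Ndufa1, a complex I subunit, was at 9.25 and 10.93 in unirradiated and 11.04 and 11.60 in irradiated cells, and Sdhb, a succinate dehydrogenase subunit, at 5.75 and 7.80 against 7.90 and 8.38. Glycolysis and hypoxia genes had a median of 0.11, with 8 of 22 higher and 7 lower within both replicates, and proteasome genes one of 0.08, with 14 of 31 higher and 9 lower.

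**Figure D4:**
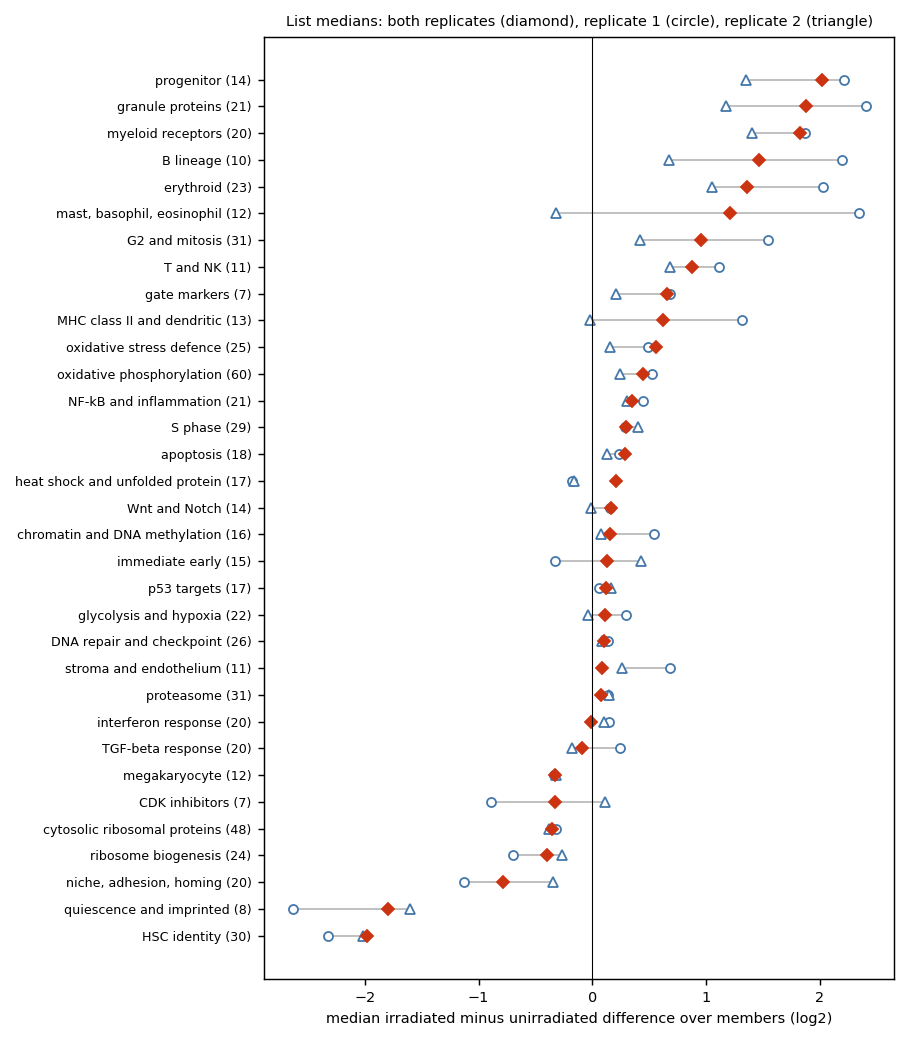
Median log2 difference, irradiated minus unirradiated, over the kept members of 33 gene lists in mp53 cells of mosaic mice, from both replicates (red diamonds), replicate 1 (open circles) and replicate 2 (open triangles), with the number of members in brackets. HSC identity is lowest at -1.98 and progenitor markers highest at 2.02. The p53 targets sit near 0, at 0.12.

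Transcriptional targets of p53 showed no common direction 3 weeks after exposure. Of 17 kept, 9 were higher and 6 lower within both replicates, and the median was 0.12 (0.06 and 0.16). At an unadjusted p under 0.05, 2 of the 17 were higher, against 6.32% of all genes. Mdm2, the ubiquitin ligase that p53 induces and that degrades it, was at 10.52 and 10.16 in unirradiated and 9.83 and 10.05 in irradiated cells (difference -0.40, SE 0.30, limma unadjusted p = 0.213, and 1.68 under median scaling). Ccng1, cyclin G1, was at 9.67 and 8.30 against 8.45 and 8.25, and its kept probes differed in sign. Cdkn1a, which encodes p21, was detected on at most 2 of the 12 arrays and was not kept. Gadd45b, a stress sensor, lay at least 1.78-fold higher, and Tigar, a regulator of glycolysis, was at 4.39 and 5.99 against 6.85 and 7.51. Plk2, a polo-like kinase, was at 5.56 and 4.85 against 4.37 and 4.47, detected in unirradiated cells only.

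Apoptosis genes were split, with 9 of 18 higher and 7 lower within both replicates and a median of 0.29. At an unadjusted p under 0.05, 3 were higher and 3 lower, against 6.32% and 7.13% of all genes. Bok, a proapoptotic BCL2 family member, was at 8.32 and 7.20 in unirradiated and 4.97 and 5.04 in irradiated cells (difference -2.75, SE 0.74). Casp9, the initiator caspase, was at 5.54 and 6.76 against 7.43 and 7.50, and Bcl2a1a, an antiapoptotic member, lay at least 1.88-fold higher. DNA repair and checkpoint genes had a median of 0.10, with 12 of 26 higher and 5 lower within both replicates. Mgmt, which repairs alkylated guanine, was at 8.93 and 8.10 against 6.32 and 7.05. Trp53bp1, a p53-binding protein of double-strand break repair, was at 8.10 and 8.28 against 7.48 and 6.56. Both lay higher under median scaling, by 0.25 and 0.69. H2ax, the histone marked at breaks, was at 5.25 and 7.59 against 8.21 and 7.66, and within replicate 2 alone its difference was 0.07.

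Inflammatory and stress lists gave mixed values. NF-kB and inflammation genes had a median of 0.35, with 10 of 21 higher and 3 lower within both replicates, and it was positive in every setting tried (0.29 to 2.01). Its mean level was 7.01 and 6.97 on irradiated replicates 1 and 2, above the 5.97 to 6.87 of the 10 others. However, 4 of the 21 had been kept through the irradiated pair alone, which favours a higher level there. Tnfaip3, an inhibitor of NF-kB, was at 4.53 and 6.21 in unirradiated and 6.78 and 6.91 in irradiated cells, while Ccl4, a chemokine, was at 9.45 and 8.09 against 7.35 and 6.50 (0.18 under median scaling). Interferon response genes had a median of -0.01 over 20 (1.39 under median scaling), with 7 higher and 5 lower within both replicates. Of these, Ifitm1, an antiviral membrane protein, was at 10.52 and 10.43 against 9.22 and 8.80 (0.61 under median scaling), and Rsad2, viperin, was at 7.19 and 7.95 against 9.12 and 8.90. Immediate early genes had a median of 0.13 over 15, with 6 higher and 6 lower within both replicates. It rested on the unirradiated arrays, at 1.17 without replicate 1 and -0.16 without replicate 2. Within it Ier3, a survival gene, was at 10.30 and 9.83 against 9.09 and 9.13 (1.12 under median scaling), and Klf2, a quiescence factor of lymphocytes, lay at least 1.48-fold higher.

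Oxidative stress defence genes had a median of 0.56 over 25, of which 15 were higher and 6 lower within both replicates, with 0.02 in the fit without the dimmest array. Hmox1, haem oxygenase, lay at least 2.67-fold higher and Gsr, glutathione reductase, at least 2.30-fold. Heat shock and unfolded protein genes had a fitted median of 0.21 but within-replicate medians of -0.18 and -0.16, with 5 of 17 higher and 7 lower within both. The TGF-beta list had a median of -0.09 (0.93 under median scaling) over 20 genes, 8 higher and 7 lower within both replicates. Tgfbr3, the co-receptor betaglycan, was at 8.90 and 7.05 against 6.30 and 5.24, and Smad3, a signal transducer, at 11.17 and 10.67 against 9.75 and 9.41 (difference -1.33, SE 0.34, but 0.66 under median scaling). Tgfbr1, the signalling receptor, was at 6.29 and 7.58 against 8.78 and 8.58 (difference 1.75, SE 0.46).

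Chromatin and DNA methylation genes had a median of 0.16 over 16, with 7 higher and 5 lower within both replicates. Phc1, a subunit of Polycomb repressive complex 1, was at 11.06 and 10.21 in unirradiated and 8.97 and 8.30 in irradiated cells (difference -1.99, SE 0.62). Dnmt3b, a de novo DNA methyltransferase, was at 11.01 and 9.20 against 8.68 and 7.89. Both were lower in both replicates, and both lay higher under median scaling (0.06 and 0.24). Wnt and Notch genes had a median of 0.17 over 14, with 5 higher and 3 lower within both replicates, among them Notch1, given above, and Lef1, a Wnt effector, at 5.53 and 4.95 against 4.63 and 4.47. The 4 sex-linked transcripts had a median of 0.07, with 1 higher and 1 lower within both replicates.

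The genes with the lowest unadjusted p among those higher did not belong to the cell type lists, apart from Fcrla. Wnk1, a kinase that controls ion transport, was detected on neither unirradiated array (4.65 and 4.67) and on both irradiated arrays (7.24 and 6.72), at least 4.21-fold higher (difference 2.32, SE 0.33, limma unadjusted p = 7.75e-05). Tnni2, a fast skeletal troponin gene, lay at least 2.19-fold higher, at 6.31 and 5.75. Rasgrp3, a Ras activator, was at 4.57 and 4.73 against 6.34 and 5.85. On arrays outside the irradiated pair Fcrla was at most at 4.81 and Rasgrp3 at most at 4.73, near background. Where a gene was kept through the irradiated pair alone, a difference was built in. Larger but less even differences were found for Jpt1, a microtubule-associated protein, at 4.44 and 9.83 against 10.89 and 10.39, for Dhrs7, a short-chain dehydrogenase, at 4.97 and 9.11 against 10.27 and 10.71, and for Kdm7a, a histone demethylase, at 4.35 and 7.33 against 9.08 and 9.04. In these 3 the dimmest array held the low value. Ppp1r42, a protein phosphatase regulatory subunit, was at 4.33 and 5.03 against 8.74 and 7.12.

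WT cells of the same kinds of mosaic mice served to ask where the difference in mp53 cells departed from that in their neighbours, with no array in common. There, 0 of 13512 probes passed the adjusted threshold (0%) and 540 had an unadjusted p under 0.05 (4%), of which 146 genes (1.74%) lay higher and 178 (2.13%) lower. The difference of the differences had 0 probes past the adjusted threshold (0%; smallest adjusted p = 0.297) and 2106 at an unadjusted p under 0.05 (15.6%), and 1460 past the adjusted threshold without unirradiated mp53 replicate 2. By gene, 512 (6.11%) lay higher and 728 (8.69%) lower in mp53 than in WT cells at the unadjusted p. No gene was therefore called as particular to mp53 cells with all arrays. Array brightness moved in opposite directions in the genotypes. The 95th percentile of raw intensity was 265 and 439 in unirradiated and 107 and 171 in irradiated WT cells of mosaic mice. In mp53 cells it was higher after irradiation in both replicates. Brightness entered an alternative fit as a covariate, and its part in the difference between genotypes was not tested beyond that.

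In WT cells the HSC identity list had a median irradiation difference of -0.14 (0.20 and -0.30 within replicates 1 and 2), against -1.98 in mp53 cells. At an unadjusted p under 0.05, 16 of its 30 genes had a more negative difference in mp53 cells, against 8.69% of all genes. Ndn was at 10.44 and 11.01 in unirradiated and 10.36 and 10.16 in irradiated WT cells (difference of differences -3.75, SE 0.79, limma adjusted p = 0.297). Cdkn1c was at 8.90 and 10.61 against 9.86 and 10.18. The limma unadjusted p of the difference in WT cells was 0.428 for Ndn and 0.722 for Cdkn1c. Foxa3 differed from this pattern, since it was lower in both genotypes, at 7.28 and 8.04 against 4.48 and 5.89 in WT cells (difference of differences -0.75, SE 0.72).

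In WT cells the median was -0.68 for myeloid receptors, -0.25 for granule genes, -0.22 for T and natural killer genes, -0.10 for B-lineage and -0.06 for erythroid genes. The granule list moved in opposite directions within WT replicates 1 and 2 (-2.80 and 2.04). Of the 20 myeloid receptor genes, 7 had a more positive difference in mp53 cells at an unadjusted p under 0.05, against 6.11% of all genes. Csf3r was at 6.79 and 5.86 in unirradiated and 4.36 and 4.82 in irradiated WT cells, and Irf8 at 7.56 and 5.78 against 4.29 and 4.48, both lower after irradiation, where in mp53 cells they were higher.

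**Figure D5:**
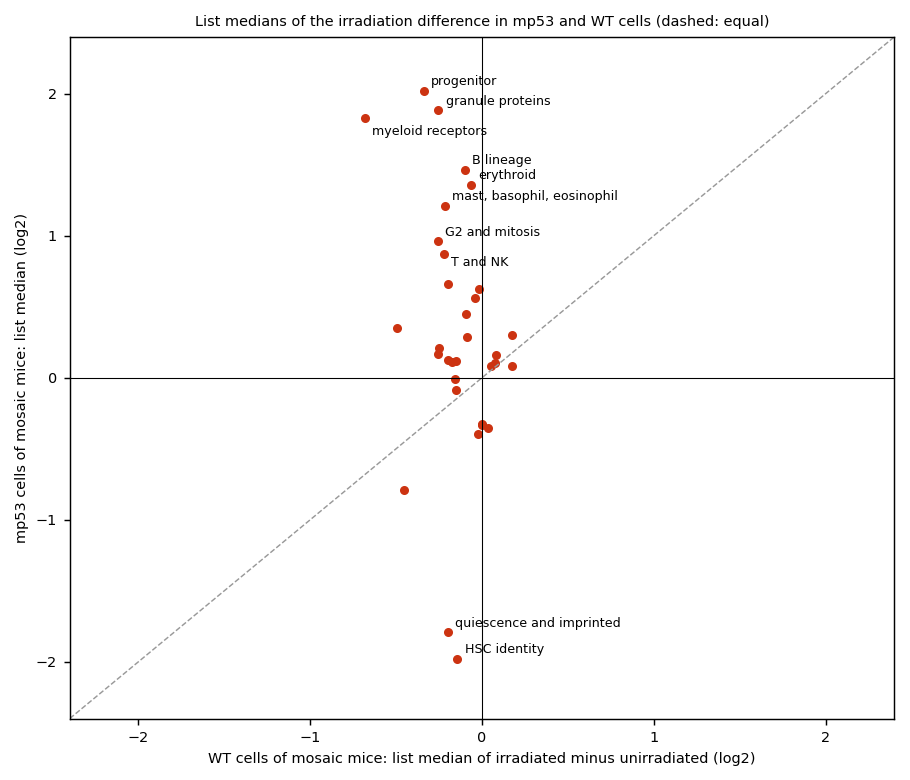
Median log2 irradiation difference of 33 gene lists in WT cells (horizontal) and mp53 cells (vertical) of mosaic mice, with the line of equal values dashed. Medians in WT cells lie between -0.68 and 0.18, and those in mp53 cells between -1.98 and 2.02.

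The genes with the lowest p of the difference between genotypes, apart from Ndn, had opposite directions in mp53 and WT cells. Choosing genes by that p favours opposite directions. Tnni2 differed by 2.80 (SE 0.41, limma adjusted p = 0.297), with 5.55 and 5.79 in unirradiated and 4.40 and 4.41 in irradiated WT cells. Skil, a repressor of SMAD signalling, was at 5.38 and 5.07 against 6.58 and 5.90 in mp53 cells and at 6.50 and 6.42 against 4.62 and 4.30 in WT cells. B3gat3, a glycosaminoglycan linker enzyme, was at 5.88 and 6.90 against 7.62 and 7.02 in mp53 cells and at 7.22 and 7.11 against 4.80 and 4.74 in WT cells. Rassf3, a Ras association domain protein, differed by 4.31 (SE 0.75), and Rnf11, a ubiquitin ligase subunit, by 3.11 (SE 0.54), although the kept probes of Rnf11 differed in sign. Sox21, a neural transcription factor, differed by -2.55, Abhd6, a lipase, by -2.46, Haghl, a glyoxalase-like protein, by -2.16, and Phldb1, a cortical scaffold protein, by -2.03. These 4, named for that low p, lay lower after irradiation in mp53 and higher in WT cells, without overlap of doses in either. In mp53 cells 21.6% of all genes were lower without overlap, and the share in WT cells was not counted. Under median scaling, however, Abhd6 and Haghl lay higher in mp53 cells too (0.39 and 0.83).

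Irradiated mp53 cells that faced no competition, from fully recombined mice, share no array with this comparison, and their values are set beside it as a description. On HSC identity their list level was 7.57 and 6.57. The first lay within the unirradiated pair of mosaic mice (7.69 and 7.34), and the other between that pair and the irradiated one (5.84 and 5.50). Fgd5 was at 7.27 and 6.44, Robo4 at 9.89 and 8.28 and Meis1 at 11.35 and 9.27. Myeloid receptor genes had a mean level of 5.09 and 7.50. Replicate 1 lay below every array of mosaic mp53 cells for that list, and replicate 2 lay between the unirradiated and irradiated ones.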

How the data were processed

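The 12 samples, 2 in each of 6 groups, were hybridised to Illumina mouse bead arrays. Per the file headers, the authors deposited 1 table per replicate number, which holds non-normalized intensity and, beside it, the detection p-value. RNA of 200 sorted cells was extracted with Trizol, amplified with RiboAmp HS and biotin-labelled, per the labels' protocols. The scanner software and the method behind the deposited processed value table, whose values were taken as linear intensity and log2-transformed as an alternative, were not stated in the labels or headers read here.

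Background correction (normexp, offset 16, informed by detection p-values), quantile normalisation and log2 transformation used neqc of limma 3.58.1 in R 4.3.3. Of 46632 probes, 11 listed more than once were averaged; 29976 had 1 gene symbol, 10 several and 16646 none, and 29921 matched a RefSeq gene. A probe was kept if both arrays of any group detected it at p under 0.05 (13512 probes), and each gene was read from its kept probe of highest mean (8374 genes). The 6 group means were fitted with lmFit and eBayes, with Benjamini-Hochberg adjustment over all kept probes and a threshold of 0.05. The code was tested on simulated data. The deposited intensities give no counts, and the number of arrays limits the precision. Array brightness is given in the report.

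Named genes were the 15 a direction with the largest difference at an unadjusted p under 0.05, the same direction in both replicates and detection on both arrays of 1 of the groups, the 4 members a list with the lowest p, the 5 a direction with the lowest p in this comparison and in the difference between genotypes, and a fixed set of p53, gate and sex-linked genes. A gene that several rules name counts under each. The comparison, the gene lists and the tests were chosen with earlier results of these data known. Alternatives covered background, scaling, detection filters, prior, array weights, a brightness covariate, a replicate block and arrays left out.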

Additional observations from a re-analysis of the deposited data

Results flagged for a closer look

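In 4 of 34 gene lists the mean level moved in opposite directions in the genotypes. Both irradiated mp53 arrays of mosaic mice lay above both unirradiated ones, and both irradiated WT arrays lay below both unirradiated ones. Of all genes, 22% lay higher without overlap in mp53 cells, and the share lower without overlap in WT cells was not counted. Some gaps were narrow. T and natural killer genes were at 5.599 in unirradiated and 5.593 in irradiated WT replicate 2. For p53 targets, mp53 replicate 1 was at 6.108 unirradiated and 6.128 irradiated. Members kept through the irradiated mp53 pair alone were 1 of 17 p53 targets, 3 of 11 T and natural killer, 4 of 21 NF-kB and 0 of 14 Wnt and Notch genes. The median difference of the irradiation effects, mp53 minus WT, was 0.37 log2 for p53 targets, 2.20 for T and natural killer cell genes, 0.63 for NF-kB and inflammation genes and 0.48 for Wnt and Notch genes. The difference was not tested for any of these lists.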

How the results depend on the processing

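No probe passed the adjusted threshold for irradiation in mp53 cells under any alternative run except without unirradiated replicate 2. Leaving out 1 array at a time gave 0 to 981 called probes, with 244 to 1714 higher and 306 to 2510 lower at the unadjusted p, 261 to 680 for WT cells, and 0 to 1460 called and 1117 to 4051 unadjusted for the difference between genotypes. The higher, lower, WT and between-genotype counts at the unadjusted p were 1626, 1927, 1399 and 3893 with a replicate block, 3044, 12, 1038 and 4162 with median scaling, 1482, 2103, 2043 and 4254 without a filter on dim probes, and 118, 404, 113 and 426 with the strict detection filter. The authors' processed table gave 404 higher, array weights 456 higher and 978 for WT, brightness as a covariate 824 for WT, and the arrays compared alone 415 lower. Without the 2 dimmest arrays, chosen after seeing the data, the difference between genotypes had 901. The replicate numbers are not stated to share a mouse or day, and deviations of same-numbered arrays correlated at 0.07 to 0.64 between groups.

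Of 34 list medians, 13 kept their sign in each of 17 settings that gave a value, and of 123 gene differences, 103 did. Median scaling turned the medians of CDK inhibitor (0.78), interferon (1.39), TGF-beta (0.93), megakaryocyte (1.05), niche (0.20), ribosome biogenesis (1.20) and ribosomal protein genes (1.21), and the differences of Cd34 (0.81), Gata2 (0.16), Rpl22 (0.39), Rplp0 (1.04), Rpl32 (0.96), Gar1 (0.90), Mdm2 (1.68), Ccng1 (1.43), Mgmt (0.25), Trp53bp1 (0.69), Ccl4 (0.18), Ifitm1 (0.61), Ier3 (1.12), Smad3 (0.66), Phc1 (0.057), Dnmt3b (0.24), Haghl (0.83), Abhd6 (0.39) and Xist (0.71). The strict filter, with fewer genes tested, turned p53 targets (-0.25), apoptosis (-0.46), repair (-0.029), heat shock (-0.16), oxidative stress (-0.16), MHC (-0.13) and gate genes (-0.44), and left too few members for a median of the B, T and natural killer, mast, stroma and sex-linked lists. The brightness covariate turned p53 targets (-0.18), apoptosis (-0.11), repair (-0.29), granule (-0.10), megakaryocyte (0.41), oxidative phosphorylation (-0.074), interferon (0.0074), TGF-beta (0.046) and gate genes (-0.17), Ccng1 (0.13) and Xist (0.82). No background correction turned interferon genes (0.012), and an offset of 50 (-0.0086) and detection on 6 of 12 arrays (-0.48) turned sex-linked genes. With 1 array left out, medians ran from -1.15 to 0.22 for megakaryocyte, -0.25 to -0.030 for heat shock, -0.011 to 0.57 for oxidative phosphorylation, -0.041 to 0.20 for proteasome, -0.56 to 0.026 for ribosome biogenesis, -0.12 to 0.46 for gate genes, -0.85 to 0.071 for CDK inhibitors, -0.16 to 1.17 for immediate early genes, -0.023 to 1.84 for mast cell genes, -0.044 to 0.34 for chromatin genes, -0.076 to 0.25 for interferon, -0.065 to 0.19 for TGF-beta, -0.55 to 0.33 for sex-linked genes and -0.064 to 0.33 for p53 targets, and differences from -1.32 to 0.054 for the gene Ccng1, -1.16 to 0.28 for the gene Cd34, -0.67 to 4.53 for Eif2s3y and -1.12 to 0.15 for Xist. The causes were not tested.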
